A study of Mus musculus with 10 samples.

Results

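The regions described here are stretches of open chromatin in the neonatal mouse cochlea that were called at postnatal days 2, 5 and 8 (P2, P5 and P8), lay away from the ends of annotated genes, and had a protein-coding gene nearby. Peaks of the 3 deposited lists were joined into a region wherever they shared 1 bp or more. A region was kept when it held a peak of all 3 lists, when its middle was more than 1 kb from both ends of every annotated gene, and when that middle was inside a protein-coding gene or within 100 kb of one. The rule kept 18709 of 64911 merged regions, which was 28.8% of them (95% Wilson interval 28.5 to 29.2%, counting error only). Being called at all 3 ages, the distance from gene ends and the nearness of a coding gene are what chose these regions, and are therefore descriptions and not findings.

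ATAC-seq was used, an assay of open chromatin whose transposase cuts and tags DNA that is not wrapped tightly around nucleosomes. Nuclei came from both cochleae of single CD1 mice, an outbred strain, of which 3 were P2, 3 were P5 and 4 were P8. No treatment, mutation or sort of a cell type is given in the labels, so the labels separate the groups by age only, and every list mixes the cell types of the dissected organ. There is 1 list per age and none per animal, so no spread between animals can be given, no test was run, and a region missing from a list may have fallen below the calling threshold. Where 3 values stand in a row they are in the order of age.

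Distal accessible regions include enhancers, which bind transcription factors and act on the promoters of genes that can be far away. They also include insulators, other sites of protein binding, and alternative promoters inside genes. The cochlea matures in the days covered here: hair cells and supporting cells of the organ of Corti differentiate, the greater epithelial ridge remodels, the stria vascularis builds the machinery that secretes potassium, and the surrounding mesenchyme forms fibrocytes and bone.

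The DNA at a few annotated starts is shown first. Sequence was read at annotated starts only, and 6.66% of the regions that could be scored held one. The sequences are the 250 bases before an annotated transcription start inside a gene, from RefSeq on build GRCm38.p6 (mm10), written 5′ to 3′ on the strand of the gene, with each CpG dinucleotide in capitals. CpG-rich stretches of this kind are typical of promoters. They were chosen after their values were seen. The first 2 belong to the highest-placed regions among those farther than 10 kb from any gene end. Rps6ka2 encodes a ribosomal S6 kinase (chr17:7169865-7170114, plus strand, 80.9 kb from the nearest gene end), and Iffo2 an intermediate filament family protein (chr4:139574470-139574719, plus strand, 44.0 kb from the nearest gene end).
Rps6ka2: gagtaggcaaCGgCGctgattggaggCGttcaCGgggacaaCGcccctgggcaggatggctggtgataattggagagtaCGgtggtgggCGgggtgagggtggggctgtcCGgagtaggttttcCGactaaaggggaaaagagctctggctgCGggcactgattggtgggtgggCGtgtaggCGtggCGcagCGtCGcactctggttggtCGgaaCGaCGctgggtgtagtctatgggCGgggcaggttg
Iffo2: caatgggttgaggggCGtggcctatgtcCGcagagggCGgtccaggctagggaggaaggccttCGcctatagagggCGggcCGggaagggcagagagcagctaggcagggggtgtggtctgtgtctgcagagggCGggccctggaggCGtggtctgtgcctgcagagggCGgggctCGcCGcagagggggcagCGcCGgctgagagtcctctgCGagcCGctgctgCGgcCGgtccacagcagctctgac
The next 3 lie inside genes with many such regions or with roles in development. They are Nav2, a neuron navigator protein of the cytoskeleton (chr7:49245939-49246188, plus strand), Runx1, a transcription factor (chr16:92697330-92697579, minus strand), and Shroom3, an actin-binding protein that shapes epithelia (chr5:92897743-92897992, plus strand).
Nav2: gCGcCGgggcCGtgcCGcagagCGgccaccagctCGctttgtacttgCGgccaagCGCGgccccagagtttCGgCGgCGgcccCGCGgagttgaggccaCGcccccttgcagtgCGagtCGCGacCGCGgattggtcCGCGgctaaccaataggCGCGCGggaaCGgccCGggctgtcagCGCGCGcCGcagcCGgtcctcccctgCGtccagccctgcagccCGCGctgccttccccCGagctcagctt
Runx1: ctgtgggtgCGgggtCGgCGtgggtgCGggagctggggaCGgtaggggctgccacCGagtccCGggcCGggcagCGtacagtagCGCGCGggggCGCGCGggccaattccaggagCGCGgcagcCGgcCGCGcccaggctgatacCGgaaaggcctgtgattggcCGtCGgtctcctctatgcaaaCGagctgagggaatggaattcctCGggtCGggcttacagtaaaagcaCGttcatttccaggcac
Shroom3: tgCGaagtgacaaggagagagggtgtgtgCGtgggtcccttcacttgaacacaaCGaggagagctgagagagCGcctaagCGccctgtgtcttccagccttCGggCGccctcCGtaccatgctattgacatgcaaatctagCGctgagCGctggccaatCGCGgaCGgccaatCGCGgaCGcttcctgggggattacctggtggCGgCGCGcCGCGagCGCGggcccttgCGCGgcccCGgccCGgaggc
The last 2 are shown because they are CpG-poor starts that were nevertheless called at all 3 ages. They belong to Sox6, a transcription factor of cartilage and other tissues (chr7:115824711-115824960, minus strand), and Dock9, an activator of the small GTPase Cdc42 (chr14:121698418-121698667, minus strand).
Sox6: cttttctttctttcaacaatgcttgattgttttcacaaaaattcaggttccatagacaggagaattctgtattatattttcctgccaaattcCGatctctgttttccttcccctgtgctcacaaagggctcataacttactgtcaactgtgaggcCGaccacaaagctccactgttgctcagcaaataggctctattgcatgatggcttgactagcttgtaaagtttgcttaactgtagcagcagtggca
Dock9: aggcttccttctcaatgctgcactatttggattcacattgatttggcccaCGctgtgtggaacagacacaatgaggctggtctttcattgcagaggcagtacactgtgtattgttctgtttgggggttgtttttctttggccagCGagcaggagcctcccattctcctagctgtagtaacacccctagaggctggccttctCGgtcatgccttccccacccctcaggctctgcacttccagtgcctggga
The Nav2 stretch holds 36 CpG dinucleotides, the Runx1 and Shroom3 stretches 27 each, Rps6ka2 19 and Iffo2 17. The stretches of Sox6 and Dock9 hold 2 and 3. The region of the Rps6ka2 start was at within-list percentiles 99.8, 99.9 and 99.6, where 100 is the highest ranking value of a list. The Sox6 region was at 65.0, 65.6 and 69.5. The CpG-rich starts of Nav2 (89.3, 79.9 and 84.7) and Shroom3 (86.8, 76.3 and 69.6) and the CpG-poor start of Dock9 (85.2, 82.1 and 75.8) overlapped in their percentiles, so among these examples CpG number did not order the regions by place.

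Of 43110 distal regions near coding genes called at any age, 43.4% (42.9 to 43.9%) were called at all 3 ages, against 50.3% of all merged regions. The lists were of unequal length, with 52085, 47683 and 43878 peaks. A region called at 3 ages stood higher in each list than a distal region called at fewer ages. Its median percentiles were 58.5, 56.4 and 51.7. Distal regions of 2 ages had medians of 31.8, 23.8 and 24.5 where they were called, and those of 1 age 16.4, 12.9 and 15.1. Constitutive regions within 1 kb of either end of a gene, numbering 12209, had medians of 85.4, 82.9 and 81.8. The distal regions called at 3 ages therefore lay between the distal regions called at fewer ages and the gene ends. Standing high in 3 lists and being called in 3 lists are not independent, so this order is a description.

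**Figure D1:**
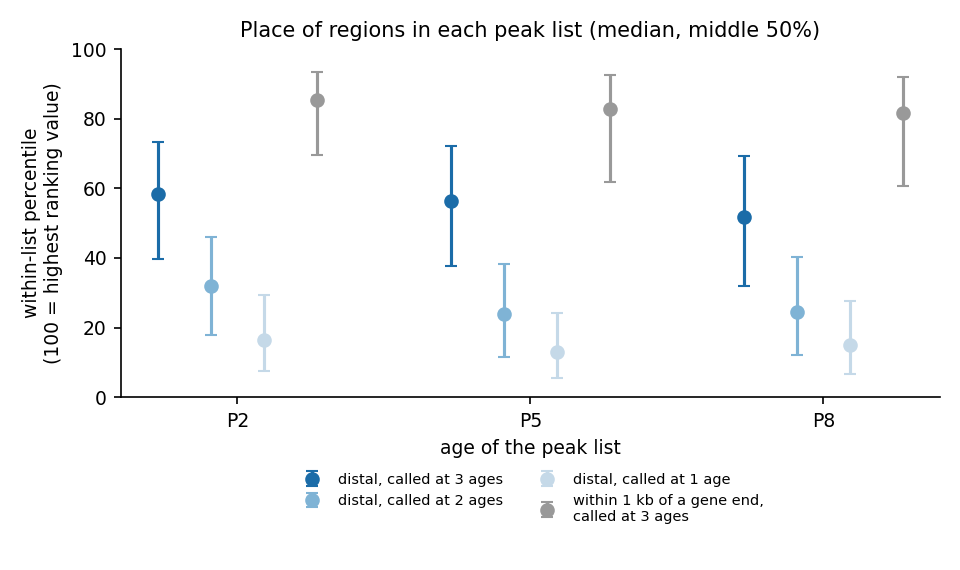
Within-list percentile (vertical axis, 100 is the highest ranking value of a list) by age of the list (horizontal axis) for distal regions called at 3, 2 or 1 ages and for regions within 1 kb of a gene end called at 3 ages. Points are medians and bars span the middle 50% of regions; at P2 the medians are 58.5, 31.8, 16.4 and 85.4 in that order.

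Most of the distal regions were of middling rank. Only 456 of them (2.44%) stood above percentile 90 at every age, while 27.4% of the constitutive regions at gene ends did. Above percentile 50 at every age were 7326 (39.2%), and 484 (2.59%) stayed below percentile 25 in all 3 lists. The peaks that formed them were also narrower before all peaks were set to a common width. The median widths of the input peaks were 575.5, 656 and 664 bp, against 872, 923 and 967.5 bp at gene ends. Merged regions had a median length of 513 bp, and 103 of them held more than 1 peak of some age.

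The peaks of a region met at almost the same spot at each age. The rule asked for an overlap of only 1 bp, and a P5 peak could bridge P2 and P8 peaks that did not overlap; the widest spread of the 3 middles was 748 bp. Among the 18606 regions with a single peak per age, the median distance between those middles was 8 bp. It was at most 50 bp in 82.1% (81.6 to 82.7%) and more than 250 bp in 1.96%. From P2 to P5 and from P5 to P8 the median was 7 bp. At gene ends the P2 to P8 median was 5 bp, with 88.0% (87.5 to 88.6%) within 50 bp. The position was closest in the regions that stood highest. In steps of 25% of the P2 order, from the lowest to the highest, 74.7, 82.4, 84.4 and 87.0% of the regions lay within 50 bp.

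**Figure D2:**
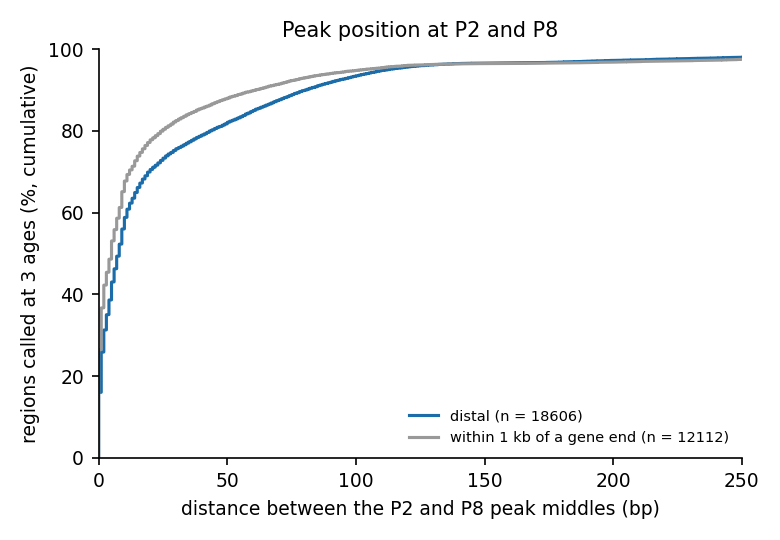
Cumulative share of regions (vertical axis, percent) by the distance in bp between the middles of their P2 and P8 peaks (horizontal axis, shown to 250 bp), for distal regions called at 3 ages and regions within 1 kb of a gene end called at 3 ages. At 50 bp the curves stand at 82.1 and 88.0%.

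The regions lay mostly in gene bodies, much as the distal regions called at fewer ages did. Inside a protein-coding gene were 11435 of them, or 61.1% (60.4 to 61.8%), and of the distal regions called at 1 or 2 ages 62.4% (61.8 to 63.0%). A further difference was the distance to gene ends, with a median of 9.446 kb against 11.749 kb. Of the distal regions 1 to 5 kb from a gene end 48.3% (47.4 to 49.1%) were called at all 3 ages. The share was 43.8% (43.0 to 44.5%) at 5 to 20 kb, 39.2% (38.2 to 40.2%) at 20 to 50 kb and 37.2% (35.8 to 38.7%) farther out. Those outside genes lay a median of 17.2 kb from the nearest coding gene, and 54.5% (53.3 to 55.6%) of them were within 20 kb, against 49.3% (48.3 to 50.4%) for regions of 1 or 2 ages. At the edges of the rule the values were close. Kept regions at most 200 bp farther from a gene end than the 1 kb limit had median percentiles of 66.3, 61.7 and 57.2 (508 regions). Constitutive regions less than 200 bp nearer to a gene end than the limit had 68.7, 63.7 and 61.3 (532 regions). In the last 10 kb before the 100 kb limit the medians were 52.6, 53.6 and 48.8 (206 regions), and in the 10 kb beyond it 56.3, 56.0 and 50.8 (147 regions).

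Transcription starts inside genes were a feature that the rule did not use directly, although its 1 kb limit set which starts could count. RefSeq lists a 300-base window around each of 3549 starts of coding genes that are more than 1 kb from every gene end. Of these, 1071 lay in a distal region called at all 3 ages, 233 in a region called at 1 or 2 ages, and 2217 in no called region. The few others lay in regions called at all 3 ages that the rule did not keep. Accessible starts were CpG-rich. The window held at least 10 CpG dinucleotides in 81.0% of the starts in constitutive distal regions, in 51.1% of those in regions of 1 or 2 ages, and in 23.8% of those in no region, beside 56.8% of all 21263 start windows of coding genes. Turned around, 3.36% of internal starts with 0 to 2 CpG lay in a constitutive distal region (21 of 625). With 3 to 9 CpG it was 13.1% (182 of 1385), with 10 to 19 it was 51.3% (346 of 674), and with 20 or more 60.3% (522 of 865). Median GC content followed the same order, at 61.0, 57.3 and 50.3%.

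**Figure D3:**
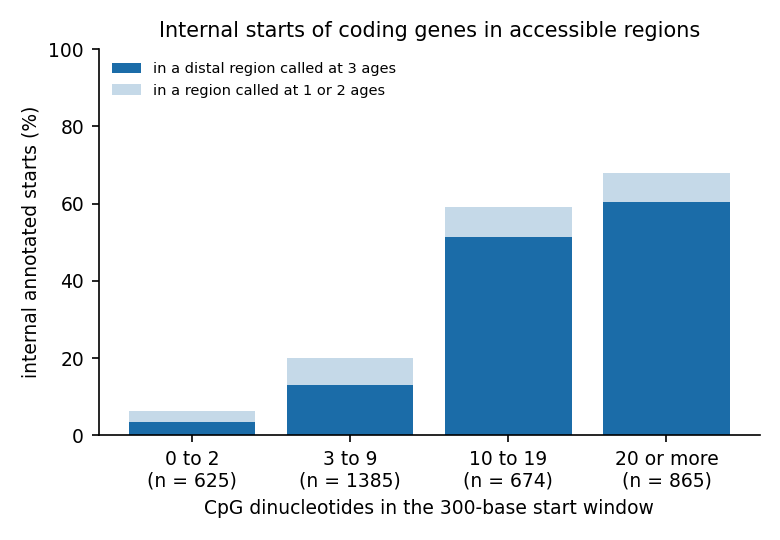
Share of annotated internal starts of coding genes (vertical axis, percent) that lie in a distal region called at 3 ages or in a region called at 1 or 2 ages, by the number of CpG dinucleotides in the 300-base window around the start (horizontal axis, with the number of starts). The share in regions called at 3 ages goes from 3.36% with 0 to 2 CpG to 60.3% with 20 or more.

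Of 11 short motifs searched, 8 were less frequent in the windows in constitutive distal regions than in the windows in no region, and 3 were more frequent. A GATA match (AGATAA, both strands) was in 5.42% of the windows in constitutive distal regions, in 13.8% of the windows in no region and in 9.65% of all start windows. In windows in regions of 1 or 2 ages it was in 5.58%. A TEAD match (GGAATG, both strands) was in 13.4, 17.3 and 13.6% in the same order, so its share in constitutive distal regions was near that of all start windows. An AP-1 match (TGANTCA, both strands) was in 5.42, 9.29 and 6.99%. The motifs that were more frequent were the CTCF core in 1.12, 0.812 and 1.01%, RFX in 0.747, 0.361 and 0.508%, and the POU octamer in 1.96, 1.49 and 1.66%. In constitutive distal regions these 3 matches rested on 12, 8 and 21 windows. In regions of 1 or 2 ages they were in 1.29, 1.72 and 0.429%, from 3, 4 and 1 windows. Base composition differed between these sets of windows, and its part in the motif shares was not tested. A match is not a bound site.

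Few of the regions held an internal start, and the share was highest near the top of the lists. Regions could be scored for a start of their own gene where the starts table had an entry for that gene, which was 78.1% of the constitutive distal regions and 77.6% of those of 1 or 2 ages. This way of scoring was chosen after the values were seen. Of the constitutive distal regions 974 of 14620 (6.66%, 6.27 to 7.08%) held such a start, and of those of 1 or 2 ages 217 of 18935 (1.15%, 1.00 to 1.31%), beside 3.55% of both together. Rank moved with this difference. The steps that follow use the P2 list only, so regions of 1 or 2 ages without a P2 peak are left out of them. Among regions above percentile 75 of the P2 list, 20.6% of the constitutive ones held a start (678 of 3289, 19.3 to 22.0%), and 14.5% of the others (9 of 62, 7.83 to 25.3%). In the next steps of 25 downward the shares were 3.55 and 2.77%, then 2.01 and 1.60%, then 0.704 and 0.992%. In each of the 3 lower steps the shares lay within 1 percentage point of each other, and in the lowest their order turned. The share also moved with distance to gene ends. Of the constitutive distal regions, 11.2% held a start at 1 to 5 kb, 4.87% at 5 to 20 kb, 3.86% at 20 to 50 kb and 4.90% farther out. For regions of 1 or 2 ages the shares were 1.94, 1.06, 0.680 and 0.601%. Of the 372 scored regions above percentile 90 at every age, 56.7% held a start.

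The highest-placed regions illustrate this. Pcmtd1 held the region with the best lowest percentile, at 99.98, 99.99 and 99.92, inside the gene and 1.76 kb from a gene end. Trim45 (99.98, 99.91 and 99.81), which encodes a tripartite motif protein, followed. Rfx1, a transcription factor of the RFX family, Rps6ka2, Ddx50, an RNA helicase, Fer, a tyrosine kinase, Pex2, a peroxisome assembly protein, Ybx1, a nucleic acid binding protein, Aktip and Iffo2 completed the first 10. All 10 lay inside the gene, and 8 of them held an annotated start of it. Pcmtd1 and Pex2 had no entry among the RefSeq starts, so their regions could not be scored. Of the 10, 7 were within 5 kb of a gene end. Rps6ka2 and Iffo2 were the only ones farther than 10 kb away. With the limit set at 10 kb, after these values were seen, the next regions belonged to Stk25 (99.8, 99.4 and 99.1), Hdac4, a histone deacetylase (98.9, 99.1 and 99.9), and Tiprl (99.4, 98.9 and 98.7).

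The ranking values of the regions kept much of their order between ages. Places were taken among the 18709 regions themselves, so that the lengths of the lists did not enter. As a description across regions, which share libraries and are not replicates, Spearman's correlation of the ranking values was 0.749 between P2 and P5, 0.782 between P5 and P8, and 0.638 between P2 and P8. Of the top 25% at P2, 70.2% was also in the top 25% at P8. From the top 25% at P2 to the bottom 25% at P8 went 110 regions, and 211 the reverse way.

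Single regions with the most different places, chosen after their values were seen, came from genes of many kinds. A region inside Rnf144a, a ubiquitin ligase, held places 85.1, 24.3 and 0.147, and a region inside Clcn6, a chloride transporter of endosomes, 88.0, 55.1 and 5.58. A region nearest to Mycn, a proto-oncogene of growing progenitors, held 87.2, 71.1 and 7.06. In the other direction, a region inside Ttbk1, a tau kinase, held 8.82, 95.1 and 97.5, and a region inside Tmem236 0.0134, 76.5 and 94.0. The P5 place was nearer to P8 in both of these, but nearer to P2 in a region nearest to Eif3h (0.564, 5.10 and 88.1). In all of these regions it lay between the other ages, which so wide a span between P2 and P8 makes likely.

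Of 561 genes with at least 6 of the regions, 303 had a higher median place at P8 than at P2 and 258 a lower one. Genes with the widest spread were picked after their values were seen. Steap3, an iron reductase, had median places of 18.8, 63.8 and 85.7 over its 7 regions, and 6 of the 7 stood higher at P8. Srgap2, a regulator of Rac and of cell protrusions, had 20.6, 40.9 and 69.8, with 8 of 8 higher. Ttc7b (30.2, 69.9 and 84.8) had the same order of medians, although only 3 of its 7 regions stood higher at P8. Lsamp, a neuronal adhesion protein, had 69.5, 62.4 and 14.6 over 7 regions, of which 1 stood higher. Adamts20, a secreted metalloproteinase (52.8, 42.1 and 10.1), and Arhgef3 (68.8, 61.9 and 26.2) also held lower places at P8. With 1 list per age, whether such a shift exceeds the spread between animals was not tested.

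**Figure D4:**
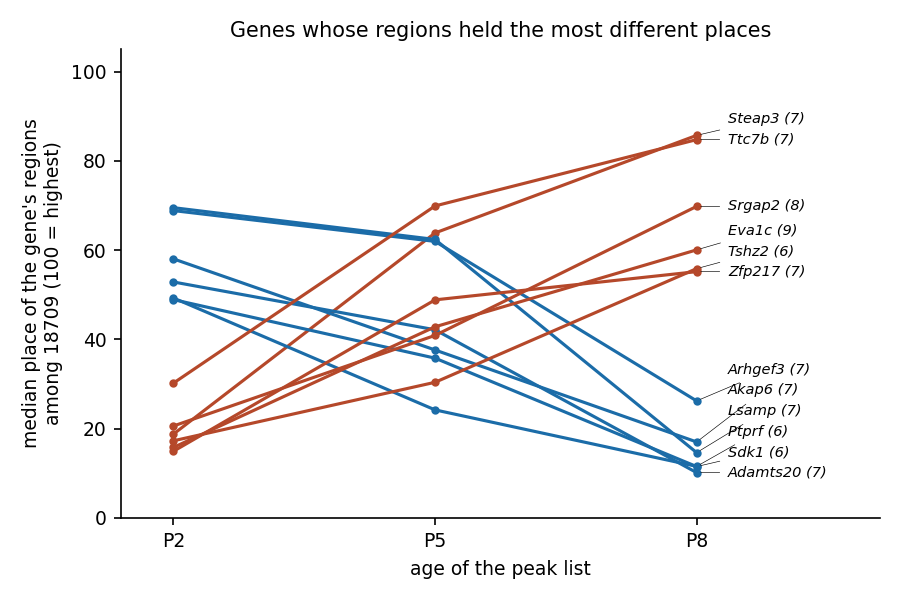
Median place of a gene's regions among the 18709 (vertical axis, 100 is highest) at P2, P5 and P8 (horizontal axis) for the 6 genes picked as highest and the 6 picked as lowest at P8 relative to P2, with the number of regions in brackets. Steap3 goes from 18.8 to 85.7 and Lsamp from 69.5 to 14.6; the genes were chosen by these values.

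Each region was assigned to its nearest coding gene. Of 21887 protein-coding genes, 8292 (37.9%) had at least 1 region, 4118 had exactly 1, 836 had 5 or more and 104 had 10 or more. The 836 genes were 3.82% of coding genes and held 31.5% of the regions. Number moved with gene length: Spearman's correlation was 0.327 over 11536 genes with a distal region, and the genes with 10 or more had a median length of 282 kb, beside 17.2 kb for all coding genes.

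The 15 genes with most regions had from 15 to 20 each. Pakap, which joins the paralemmin and A-kinase anchor reading frames, had 20 regions called at 3 ages of 31 distal regions, 19 of them inside its 463 kb (chr4:57434475-57896984). Nav2 had 20 of 47 (chr7:48959063-49610090). Rad51b, a recombination repair protein, had 19 of 37, Gse1 19 of 42, Tenm4, a teneurin that guides neuronal wiring, 19 of 46, and Auts2, a nuclear regulator named for a neurodevelopmental syndrome, 19 of 55. Rgs3, a regulator of G protein signalling, had 17 of 24, Zbtb20, a transcriptional repressor, 17 of 29, and Arhgap26 17 of 41. Zfhx3 had 16 of 35 and Frmd4a 16 of 37. Smad6, an inhibitor of BMP signalling, had 15 of 21, Spata13 15 of 23, Ctif 15 of 30, and Nfia, a nuclear factor I transcription factor, 15 of 31.

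The same number came with different surroundings. In Pakap 64.5% (46.9 to 78.9%) of distal regions were called at 3 ages and in Auts2 34.5% (23.4 to 47.7%), beside 43.4% for all genes. These genes were picked by their number of regions called at 3 ages, so their shares are descriptions. In Rgs3 the share was 70.8% (50.8 to 85.1%). Smad6 had 7 of its 15 regions inside the gene and 8 outside, while all 17 of Arhgap26 lay inside. The highest-placed region of Rgs3 stood at percentiles 93.9, 92.0 and 91.5, and that of Nav2, which is the CpG-rich start printed above, at 89.3, 79.9 and 84.7. The remaining regions of Nav2 reached down to percentile 12.9 at P5 and 5.23 at P8.

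**Figure D5:**
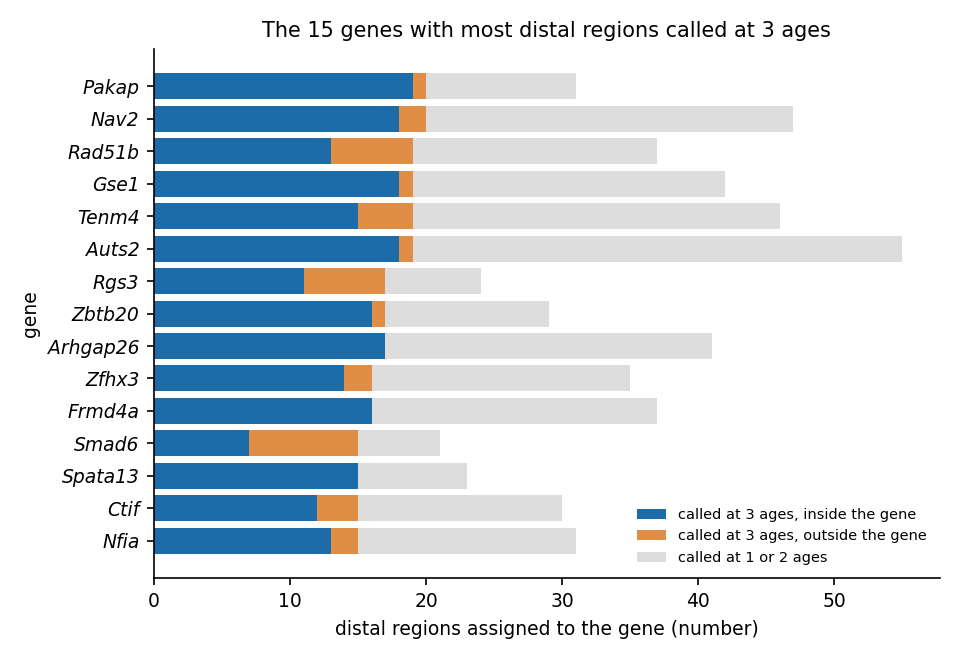
Number of distal regions assigned to each of the 15 genes with most regions called at 3 ages (horizontal axis), split into those called at 3 ages inside the gene, those called at 3 ages outside it, and those called at 1 or 2 ages. Pakap and Nav2 have 20 regions called at 3 ages each, of 31 and 47.

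The share called at all 3 ages was higher in shorter genes, while the number per length was lowest in the longest. Inside genes of up to 10 kb, 52.9% of distal regions were called at all 3 ages, and the share was 48.4, 44.2, 41.5, 38.8 and 36.1% in genes of 10 to 50, 50 to 100, 100 to 200, 200 to 500 and over 500 kb. The density of constitutive distal regions was 1.07 per 100 kb in the shortest class, then 1.41, 1.29, 1.29 and 0.994, and 0.445 in genes over 500 kb. The density is over the whole gene, including the stretches within 1 kb of its ends that hold no such region by rule.

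Among genes with at least 5 regions inside, the densest were short to middling. Car5a, a mitochondrial carbonic anhydrase, had 5 inside, or 17.4 per 100 kb. Anxa2, an annexin that binds membranes and actin, had 15.7, Steap3 13.4, and Nfix, another nuclear factor I, 12.4. Nmt1, a myristoyltransferase, and Chst3, a sulfotransferase of cartilage proteoglycan, had 12.3 each. Creb3l1 had 11.9, Actn4, an actin crosslinker, 11.6, Pxn, which encodes the focal adhesion protein paxillin, 10.9, and Triobp, an actin-bundling protein of hair cell rootlets, 10.3. The median of the 477 such genes was 3.01. Steap3, Nmt1 and Pxn had no distal region that was missing at any age: 7 of 7, 5 of 5 and 7 of 7. The regions of Actn4 stood low, at median percentiles 24.7, 21.2 and 40.6, and those of Triobp high, at 74.7, 74.5 and 63.0. Genes of similar density could thus differ in rank, and density was not compared with rank over the 477 genes.

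In genes with at least 10 distal regions the share called at 3 ages ran from 0 to 91.7%, with a median of 41.7% over 914 genes. Xpnpep1, an aminopeptidase, was highest with 11 of 12 (64.6 to 98.5%), and Cuedc1 and Medag had 9 of 11 each. Myh9, a non-muscle myosin, Fbrsl1 and Syne3, a nuclear envelope protein, had 8 of 10. Nfatc1, a calcium-dependent transcription factor, had 11 of 14, Atxn7l1 and Tgfb2, a growth factor, 10 of 13, and Nfix 12 of 16. At the other end, Cdon, a co-receptor of hedgehog signalling, had 0 of 10 although regions were called at each age (6, 6 and 3). Enox1 had 1 of 18, Slc9a9, a sodium-proton exchanger of endosomes, 1 of 17, and Lamc1, a laminin chain, 1 of 13. Lpar1, a receptor for lysophosphatidic acid, also had 1 of 13, with 4, 4 and 11 regions called. D7Ertd443e had 1 of 12, with 10, 7 and 2. These genes were ranked by the values given.

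Most of the regions had no close neighbour, and their spacing was not compared with that of a random scatter. The median distance between neighbours was 38.7 kb, and 64.4% had no other within the gap, of under 13 kb, that joined neighbours into a chain. Pairs held 22.4%, and 718 chains of 3 or more held 13.2%. The chain with most regions had 9, all inside Iqsec1, an activator of Arf6 GTPases (chr6:90703071-90764612). Actn4 (chr7:28901289-28949988) and Ahdc1 (chr4:133038780-133092759) had 8 each. Chains of 7 lay beside Lrrc74a (chr12:86770151-86802663) and Gpr37l1, a receptor of glia (chr1:135169473-135205210), with every region outside the gene. In Actn4 and Ahdc1 the chains stood low in the lists, with median percentiles of 24.7, 21.2 and 40.6, and of 45.5, 35.3 and 22.0. The Iqsec1 chain stood at 59.1, 66.6 and 60.5.

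Genes whose regions lay mainly outside the gene body were picked after their values were seen. Wnt7b, a Wnt ligand, had 11 of 16, of which 10 were outside, and its best region (chr15:85610578-85611141, 17.2 kb from a gene end) stood at 92.6, 92.7 and 91.4. Irf2bp2, a transcriptional corepressor, had 8 of 13, all outside its 5.69 kb, with the best at 87.1, 89.0 and 80.6, and Irs2, an adaptor of the insulin receptor, had 8 of 15, all outside. A nearest gene is a label of position, and which gene a region acts on was not measured.

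Genes of cochlear cell types were described by lists of markers. Of the 27 lists, no list had a share of constitutive regions whose 95% interval left out the 43.4% of all coding genes. The shares ran from 37.0% (28.8 to 45.9%) for supporting cells to 54.2% (35.1 to 72.1%) for housekeeping genes. Of all coding genes 37.9% had at least 1 region, with a median gene length of 17.2 kb. Of the hair cell genes 14 of 20 had one (median length 28.3 kb), of supporting cells 18 of 22 (10.4 kb), of fibrocytes and mesenchyme 16 of 21 (28.5 kb), and of Schwann cells and satellite glia 6 of 15 (10.4 kb), which is 40.0%. Among lists of tissues other than the cochlea, neutrophils and erythroid cells had 2 of 16 genes (3.59 kb), epidermis 3 of 12 (5.60 kb), skeletal muscle 5 of 12 (13.8 kb), liver and intestine 7 of 15 (15.7 kb) and brain neurons 8 of 13 (12.2 kb). The peak lists thus hold regions at genes of the labelled tissue and also at genes of others, and they do not measure expression.

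In sensory epithelium, the hair cell genes with most regions were Espn, an actin bundler of stereocilia, with 3 of 3, Myo6, an unconventional myosin, with 3 of 5, and Cdh23, the tip link cadherin, with 3 of 7. The regions of Espn had median percentiles of 76.6, 68.8 and 64.6. Myo7a, the myosin at the upper tip link, had 2 of 6, and Otof, the calcium sensor of the hair cell synapse, 2 of 6. Transcription factors of the sensory epithelium varied. Pou4f3 had 1 of 2, Ikzf2 2 of 5, Barhl1 2 of 2 and Insm1 1 of 1. Lhx3 had 0 of 2, Gfi1 had 0 of 1, and Atoh1 and Sox2, each called at P2 only, had 0 of 1. Among supporting cell genes Slc1a3, a glutamate transporter, had 9 of 24, Notch1 7 of 11 and Ngfr 4 of 8, while Prox1 had 1 of 2 and Fgfr3 2 of 3. The best region of Notch1 (chr2:26487129-26487637) stood at 82.3, 82.0 and 79.4. In the greater epithelial ridge and tectorial membrane list Col9a1 had 6 of 9, Dkk3 6 of 10 and Otoa 3 of 5, and Tecta, the main tectorin, had 1 of 5.

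Early otic regulators varied. Eya1, a transcriptional coactivator whose loss causes branchio-oto-renal syndrome, had 9 of 14, with 7 inside the gene and median percentiles of 50.3, 60.4 and 62.1. Lmx1a had 7 of 15, of which 1 was inside, and Zbtb16 6 of 10. Gata3 had 3 of 3. The highest-placed (chr2:9879421-9879924) stood at 92.1, 88.9 and 89.7. Another, which held an annotated start (chr2:9878383-9878887), stood at 12.4, 12.6 and 44.0. Pax2 had 0 of 4, with 4, 2 and 1 regions called.

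In the stria vascularis list of marginal cells, Shroom3 had 9 of 21, Kcnq1, the potassium channel of these cells, 8 of 24 and Tmprss3 2 of 2. Kcne1, the partner subunit of Kcnq1, had 1 of 2. For intermediate cells Mitf, the master regulator of melanocytes, had 9 of 18, of which 7 lay outside the gene. Of the 9, 7 held a higher place at P8, with median places of 15.6, 31.4 and 49.1. The list as a whole had median places of 30.3, 31.4 and 42.5. In it the regions of Kit and Tyrp1 held lower places at P8 and that of Dct a higher one. Kcnj10, the potassium channel of intermediate cells and glia, had 4 of 5, and 4 of them lay inside the gene. For basal cells, Tjp1, a tight junction scaffold, had 7 of 24 and Cldn11, the claudin of that layer, 2 of 5. Slc26a4, an anion exchanger whose loss enlarges the inner ear ducts, had 1 of 1.

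Loss of the connexin genes Gjb2 and Gjb6 is a common cause of inherited deafness. Gjb2 had 0 of 2 regions (0 to 65.8%), with 1, 0 and 2 called. Gjb6 had 1 of 6 (3.01 to 56.4%), with 3 regions called at each age. Both intervals include the 43.4% of all coding genes. The Gjb6 region (chr14:57182442-57182946, 34.5 kb from the nearest gene end) stood at percentiles 29.3, 17.5 and 40.8. Hearing loss genes as a list had 92 of 223 (41.3%, 35.0 to 47.8%).

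Mesenchyme, cartilage and bone lists had medians of 2, 2 and 1 regions per gene. Their shares of distal regions called at 3 ages were 42.2% (33.6 to 51.3%), 47.6% (37.3 to 58.2%) and 47.6% (35.8 to 59.7%), intervals that include the 43.4% of all genes. Twist2 had 7 of 13, Meox1 6 of 11, Col1a2, a chain of type I collagen, 5 of 11, and Tbx18, a regulator of otic fibrocytes, 3 of 7. Sox5 had 14 of 27 and Sox6, whose CpG-poor start is printed above, 8 of 20. Both are partners of Sox9 in cartilage, and Sox9 itself had 3 of 7. Runx2, the regulator of bone formation, had 10 of 16, Sp7, which acts after it, 4 of 5, and Alpl, a bone phosphatase, 4 of 7. Other genes of these lists had none: Dcn, the proteoglycan decorin, had 0 of 7, Prrx1, a mesenchymal transcription factor, 0 of 5, and the bone genes Ibsp, Dmp1 and Phex 0 of 3 each.

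For neurons and glia, Runx1 had 7 of 18, and the neurotrophin receptors Ntrk2 and Ntrk3 had 6 of 11 and 6 of 14. Mbp, a myelin protein, had 6 of 13, Pmp22 4 of 8 and Sox10, the regulator of Schwann cells, 2 of 2. In vessels Cdh5, the endothelial cadherin, had 5 of 9, none inside the gene, and Flt1, a VEGF receptor, 4 of 8. For macrophages, Mrc1 had 3 of 3, each with a higher place at P8 (median places 61.7, 70.0 and 79.9), and Ptprc 2 of 7. The macrophage list as a whole had median places of 61.7, 42.9 and 58.6.

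Pathway lists were also near the level of all genes. The list of nuclear factor I, AP-1 and Runx factors had 72 of 144 (50.0%, 41.9 to 58.1%), with Nfia at 15 of 31, Nfix at 12 of 16 and Runx2 at 10 of 16. The Hippo pathway list had 53 of 115 (46.1%). In it Vgll4, a repressor of TEAD factors, had 9 of 12, all inside the gene and high in the lists (median percentiles 80.4, 72.3 and 79.8). Tead1 had 9 of 25 at median percentiles 40.6, 42.7 and 41.0, and Yap1, the coactivator, had 1 of 4, at 86.1, 84.0 and 85.6. The Notch list had 67 of 147 (45.6%), led by the coactivators Maml3 with 15 of 34 and Maml2 with 14 of 23. Hes1, a target of Notch, had 2 of 13.

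Lists of regulators of the actin cytoskeleton had a median of 4 regions per gene and intervals of their shares that include that of all genes. The Dock, Elmo and Rac list had 94 of 229 (41.0%), with Abr and Trio at 12 of 20 and 12 of 22 and Dock9 at 8 of 14. Focal adhesion and actin anchoring genes had 110 of 251 (43.8%), with Tns3 at 14 of 26, Tns1 at 10 of 32 and Tln2 at 9 of 23. These lists are of long genes, with median lengths of 194 and 92.9 kb. Insulin and Igf signalling had 61 of 146 (41.8%), with Igf1r, the IGF-1 receptor, at 11 of 20, all inside the gene, and Cebpb, an adipocyte regulator, at 6 of 10, all outside its 1.52 kb. Housekeeping genes, which are short (6.64 kb), had 13 of 24, of which Ywhaz contributed 7 of 12 and Actb 3 of 4.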

How the data were processed

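ATAC-seq peak lists of mouse cochlea were analysed, 1 per age. Tools named in the submitters' processing notes are MACS2 2.1.0, Subread 1.4.6-p3 and Trimmomatic 0.33, with build mm10 and no settings. The deposited lists have 20 columns in the layout of the irreproducible discovery rate (IDR) method, which compares 2 input lists. The sources used here do not say how the inputs were formed or how reads were shifted or filtered. The authors' ranking value is a −log10 p-value, and it served here to rank the peaks of a list. The deposited IDR score and the other columns, peak positions and summits, are the authors' own. The deposited files hold no read counts, so depth is unknown; a deeper library can give a longer list.

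Peak starts were read as 0-based and written 1-based. Merging, assignment and shares were computed in Python 3.11.15 with pandas 2.3.3, numpy 2.4.6 and scipy 1.17.1, checked on simulated data. Gene positions and start windows came from RefSeq tables of GRCm38.p6. A region inside several genes went to the one with the nearer end. Intervals are Wilson 95% and cover counting error only; neighbouring regions are not independent. Motifs were searched in the RefSeq start windows only.

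The regions and gene lists were chosen with earlier results of these data known. All 488 list entries matched a gene symbol. Genes named are the 15 with most regions; the 10 densest with at least 5 inside; those of the 10 highest-placed regions; up to 3 per list; the 10 highest and 10 lowest shares with at least 10 distal regions; those of the 5 chains with most regions; and Gjb2 and Gjb6. Other genes, among them list members with few regions, were chosen after their values were seen.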

Additional observations from a re-analysis of the deposited data

How the results depend on the processing

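No paired analysis was possible because there is 1 list per age and no test. The number of regions was 7324 when only the upper 50% of each list was used, and 4926 genes then had a region. Assigning a region to every gene within 100 kb gave 16488 genes. There were 12877 regions more than 5 kb from gene ends, 14809 at an IDR of at most 0.01 and 15398 within 20 kb of a coding gene. The share of distal regions called at 3 ages was 41.7% with a reciprocal overlap of at least 50%, 42.3% with the upper 50% of each list, 45.5% with equal list lengths, 41.5% more than 5 kb from gene ends, and 42.2% also more than 1 kb from annotated starts, an alternative chosen after seeing the data. The share inside genes was 64.1% more than 5 kb from gene ends, 74.3% within 20 kb of a coding gene, which removes only regions outside genes, and 58.6% away from annotated starts. The share of P2 and P8 middles within 50 bp was 83.6% with reciprocal overlap, 85.2% with the upper 50%, 83.0% with equal lengths, 83.3% at an IDR of at most 0.01 and 80.9% more than 5 kb from gene ends. The cause of the other shifts was not tested. Of the 15 genes with most regions, 14 were kept with reciprocal overlap, 7 with the upper 50%, 13 with equal lengths, 11 at an IDR of at most 0.01, 10 at 5 kb, 11 at 20 kb, 9 with every gene counted and 12 with the nearest gene end. Rgs3 led in the upper 50% (10 regions) and at an IDR of at most 0.01 (17). Also chosen after seeing the data, the mean of the 2 inputs' ranking values moved the difference in median place between P8 and P2 by over 1.5 times in 1 of the 12 genes picked for it (Eva1c), and in the upper 50% of each list 12.9% of the regions and 2.67% of those of 1 or 2 ages held a start of their gene. Depth is unknown, so what it limits could not be measured.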
